A study of Rattus norvegicus with 24 samples.

Results

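The 10 genes described here belong to hepatic de novo lipogenesis: Acly, Fasn, Acaca, Acacb, Scd, Elovl6, Me1, Srebf1, Thrsp and Pnpla3. They were found by their Entrez gene IDs, which are 24159 for Acly, 50671 for Fasn, 60581 for Acaca, 116719 for Acacb, 246074 for Scd, 171402 for Elovl6, 24552 for Me1, 78968 for Srebf1, 25357 for Thrsp and 362972 for Pnpla3. All 10 were among the 15319 genes of the deposited count tables, and all 10 passed the filter on low counts in each fit. Liver RNA was sequenced from 24 outbred Sprague-Dawley rats, with 1 library per animal and 6 animals in each of 4 groups. Exposed females and exposed males inhaled PCB 52, an airborne polychlorinated biphenyl, through the nose only, 4 hours a day and 28 days in all, in air drawn at 12 L per minute across beads coated with the compound. Sham females and sham males were the controls, and what they breathed is not given in the sources used here. Females began exposure at 42 days of age and males at 39 days, so sex and age at the start cannot be told apart. Every animal had free access to food. The feeding state and the hour at tissue collection are not given in the sources used here. Bulk liver RNA does not separate fewer cells of a type from less RNA per cell.

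De novo lipogenesis converts carbohydrate carbon into fatty acids in the cytosol of hepatocytes. ATP citrate lyase (Acly) makes acetyl-CoA, acetyl-CoA carboxylases (Acaca, Acacb) make malonyl-CoA, fatty acid synthase (Fasn) builds palmitate, and Elovl6 and Scd lengthen and desaturate it, while malic enzyme (Me1) supplies NADPH. In liver these genes are known to be induced by insulin and glucose through the transcription factors SREBP-1c, encoded by Srebf1, and ChREBP, and to be low in fasting. SREBP-1c is made as a membrane precursor that must be cleaved, so the level of its mRNA is not its activity.

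Promoter sequence is shown for 2 pairs of genes whose levels moved together between animals, Acly with Thrsp and Acacb with Pnpla3. Each sequence is the 250 bases before the annotated start, 5′ to 3′ in the direction of the gene, from RefSeq in the GRCr8 assembly. Capitals mark CCAAT or its reverse complement ATTGG, the core of NF-Y boxes, and GGGCGG or its reverse complement CCGCCC, the core of GC boxes. The Acly promoter lies at chr10:85963632-85963881, minus strand, and the Thrsp promoter at chr1:161138965-161139214, minus strand. The Acacb promoter lies at chr12:48138215-48138464, minus strand, and the Pnpla3 promoter at chr7:117173278-117173527, plus strand.
Acly: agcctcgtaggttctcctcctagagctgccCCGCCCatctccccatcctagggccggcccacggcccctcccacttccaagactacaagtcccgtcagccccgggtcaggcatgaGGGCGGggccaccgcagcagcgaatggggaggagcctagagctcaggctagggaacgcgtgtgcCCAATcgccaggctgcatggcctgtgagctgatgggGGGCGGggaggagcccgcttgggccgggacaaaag
Thrsp: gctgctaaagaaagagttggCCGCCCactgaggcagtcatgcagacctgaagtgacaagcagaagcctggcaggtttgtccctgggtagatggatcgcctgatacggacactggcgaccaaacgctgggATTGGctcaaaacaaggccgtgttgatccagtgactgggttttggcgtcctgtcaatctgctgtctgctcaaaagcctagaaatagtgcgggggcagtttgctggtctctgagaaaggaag
Acacb: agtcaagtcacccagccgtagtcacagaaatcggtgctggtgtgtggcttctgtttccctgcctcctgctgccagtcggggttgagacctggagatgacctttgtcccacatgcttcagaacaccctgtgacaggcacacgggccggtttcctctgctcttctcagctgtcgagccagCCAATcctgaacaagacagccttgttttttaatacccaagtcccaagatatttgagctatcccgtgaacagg
Pnpla3: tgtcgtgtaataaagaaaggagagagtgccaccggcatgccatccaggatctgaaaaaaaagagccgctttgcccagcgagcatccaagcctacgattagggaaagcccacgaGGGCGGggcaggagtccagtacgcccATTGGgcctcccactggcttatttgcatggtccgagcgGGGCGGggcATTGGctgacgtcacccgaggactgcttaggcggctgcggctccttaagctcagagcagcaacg

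The promoter table held 7 of the 10 genes with 8 starts, 2 of them for Srebf1, and had no entry for Fasn, Acaca or Elovl6. CCAAT, searched on both strands, was found in 6 of these 8 windows and in 34% of all 33469 promoters of the same length. GGGCGG on either strand was also found in 6 of the 8 windows, against 30.5% of all promoters. The Me1 window held no CCAAT, the Acacb window no GGGCGG and the Scd window neither, on either strand. In the Acly window the CCAAT lay 71 to 67 bases before the start, and in the Acacb window 72 to 68 bases before it. In the Thrsp window ATTGG lay 121 to 117 bases before the start, and in the Pnpla3 window 111 to 107 and 64 to 60 bases before it. The E-box CACGTG was found in 0 of the 8 windows and in 5.59% of all promoters, and the sterol regulatory element TCACNCCAC in 0 of the 8 and 0.974%. The absence of a match says only that these letters are not in this window.

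In females, PCB 52-exposed livers had higher mean levels than sham livers for 9 of the 10 genes. Of all genes tested, 50.7% had a fold change above 0. Among the 9 were Acacb and the enzymes that lead from citrate to monounsaturated fatty acid, Acly, Acaca, Fasn, Elovl6 and Scd. None of these differences passed edgeR's quasi-likelihood test after Benjamini-Hochberg adjustment over all genes tested, at a threshold of 0.05. In that comparison 0 of 10251 genes passed (0%), while 1021 genes (9.96%) had an unadjusted p under 0.05. Of the 10 genes, 8 had an unadjusted p under 0.05, all of them higher in exposed females, a direction in which 4.64% of all genes met that level. The median log2 fold change of the 10 genes was 0.61, against 0.00 over all genes tested. Values below are CPM, counts per 1000000 library counts, given as the lowest, the median and the highest of 6 animals. Fold changes are PCB 52 over sham, on the log2 scale with the standard error.

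**Figure D1:**
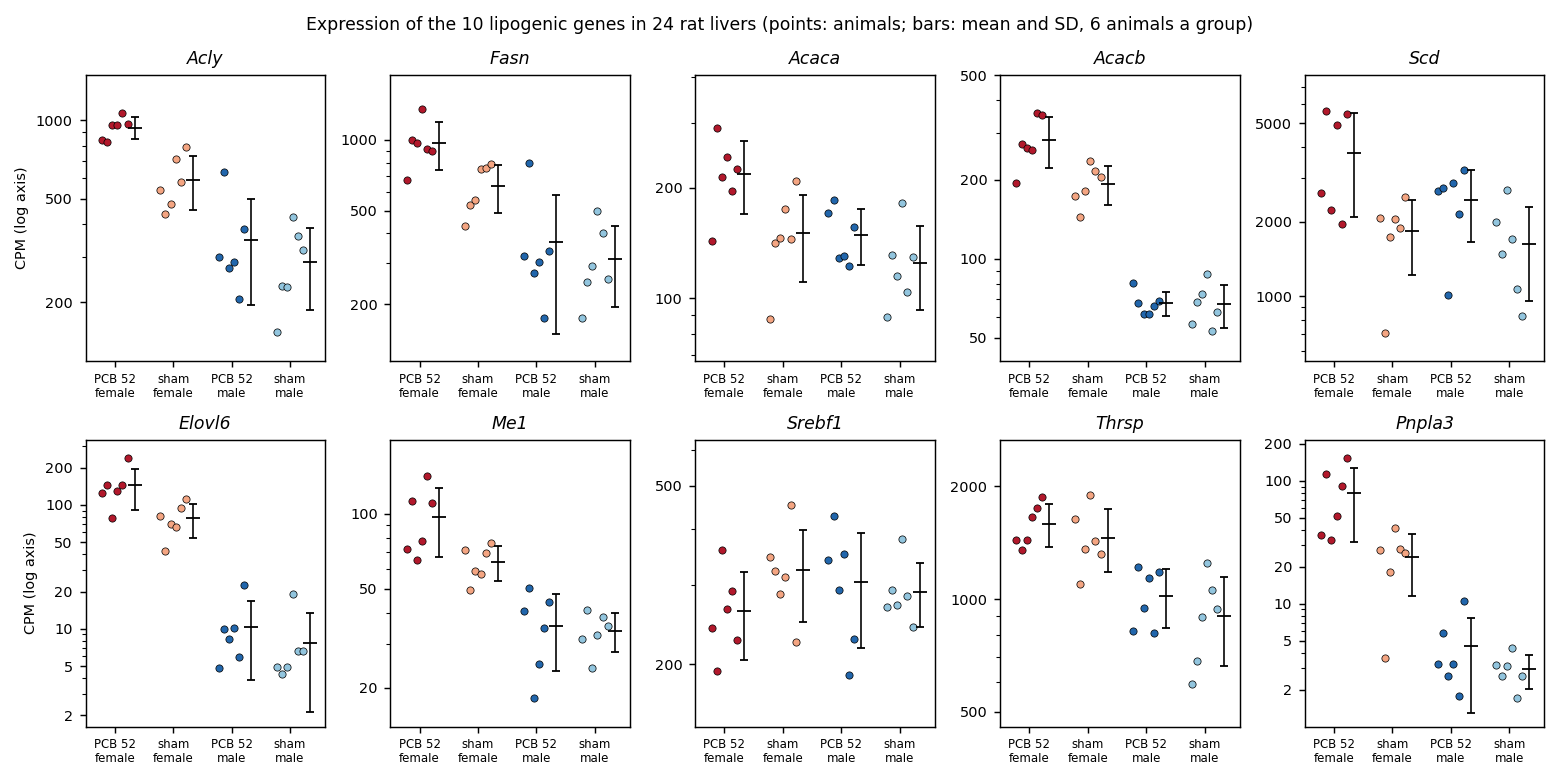
CPM of each of the 10 genes (log axis) in every animal of the 4 groups, with the mean and SD of 6 animals beside the points. Acly in exposed females lies wholly above sham females, and Elovl6 in both female groups lies above both male groups.

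Acly, which splits citrate into cytosolic acetyl-CoA, had 824, 963 and 1071 CPM in exposed females, against 437, 562 and 792 CPM in sham females. Every exposed female lay above every sham female, and Acly was the 1 gene of the 10 whose groups did not overlap, as was so, in the higher direction, for 0.166% of all genes tested. The fold change of Acly was 0.67 ± 0.13 (1.59-fold, 95% interval 0.39 to 0.95 on the log2 scale; adjusted p = 0.172 in edgeR's quasi-likelihood test). DESeq2 called Acly, with an adjusted p of 0.00245 and the same log2 fold change of 0.67, while limma-voom called none of the 10. Me1, which makes cytosolic NADPH from malate, had 65.4, 94.0 and 141 CPM in exposed females, against 49.5, 64.2 and 76.3 CPM in sham females. The 2 groups overlapped, with 4 exposed females above the highest sham female, and the fold change of 0.61 ± 0.19 did not pass (adjusted p = 0.391, edgeR).

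Acaca, the cytosolic acetyl-CoA carboxylase that makes malonyl-CoA for chain synthesis, had 143, 219 and 291 CPM in exposed females, against 87.5, 146 and 209 CPM in sham females. Acacb, the mitochondrial-membrane form whose malonyl-CoA restrains fatty acid import, had 195, 268 and 358.7 CPM in exposed females, against 144, 193 and 235 CPM in sham females. For Acaca 4 exposed females, and for Acacb 5, lay above the highest sham female. The fold changes were 0.54 ± 0.18 for Acaca (adjusted p = 0.395) and 0.56 ± 0.16 for Acacb (adjusted p = 0.341), neither of which passed in edgeR's test. Fasn, the multienzyme that builds palmitate, had 674, 946 and 1358 CPM in exposed females, against 432, 654 and 791 CPM in sham females. All exposed females but 1 lay above the highest sham female, and the fold change was 0.61 ± 0.16 (adjusted p = 0.33, edgeR).

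Scd, the delta-9 desaturase that makes oleate and palmitoleate, had 1959, 3762 and 5618 CPM in exposed females, against 708, 1971 and 2519 CPM in sham females. Exposed females separated into 3 animals between 4907 and 5618 CPM and 3 between 1959 and 2618 CPM, the lower of which overlapped the sham females. The fold change of Scd was 1.06 ± 0.37 with a 95% interval of 0.25 to 1.87 (adjusted p = 0.43, edgeR). Scd has a close paralog, Scd2, counted at 16.3 ± 2.61 CPM in exposed females and 14.1 ± 5.02 CPM in sham females (SD, n = 6 each), and how reads shared by both were counted is not given in the sources used here. Elovl6, which lengthens palmitate to stearate, had 78.6, 137 and 239 CPM in exposed females, against 42.3, 76.2 and 111 CPM in sham females. In Elovl6, too, 5 of 6 exposed females lay above the highest sham female, and the fold change of 0.91 ± 0.28 did not pass (adjusted p = 0.395, edgeR).

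Pnpla3, a lipid droplet protein with lipase and acyltransferase activity, had the largest fitted fold change of the 10 genes and the widest spread. It had 33.3, 71.6 and 154 CPM in exposed females, against 3.602, 26.8 and 41.7 CPM in sham females. The fold change was 1.74 ± 0.56 with a 95% interval of 0.50 to 2.97 (adjusted p = 0.41, edgeR), and it was 1.09 with 1 surrogate variable in the fit. Thrsp, the thyroid hormone responsive Spot 14 protein of lipogenic tissues, had 1354, 1546 and 1869 CPM in exposed females, against 1098, 1399 and 1901 CPM in sham females. No exposed female exceeded the highest sham female, and the fold change of Thrsp was 0.12 ± 0.14 (adjusted p = 0.795, edgeR). Srebf1 was the 1 gene with a fold change below 0, at -0.31 ± 0.16 (adjusted p = 0.539, edgeR). Its levels were 193, 253 and 360.0 CPM in exposed females, against 224, 317 and 452 CPM in sham females, and the groups overlapped over most of their range. Gene counts do not separate the Srebf1 transcripts for SREBP-1a and SREBP-1c.

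In males the exposed and sham livers overlapped for all 10 genes (0.236% of all genes tested did not overlap), and 0 of the 10 passed edgeR's test, with 0 at an unadjusted p under 0.05. Over all genes 0 of 10180 passed (0%) and 585 (5.75%) had an unadjusted p under 0.05, while DESeq2 called 1 gene, not among the 10, and limma-voom 0. All 10 fold changes were above 0, with a median of 0.25 against 0.00 over all genes tested, where 51% were above 0. Scd had 1008, 2699.8 and 3228 CPM in exposed males, against 831, 1589.6 and 2679 CPM in sham males, a fold change of 0.60 ± 0.33 (adjusted p = 0.829, edgeR). Acaca had 122, 144 and 185 CPM in exposed males, against 88.8, 122 and 182 CPM in sham males, a fold change of 0.27 ± 0.15 (adjusted p = 0.829, edgeR). In both genes 5 of 6 exposed males lay above the sham mean, but in Acaca only the highest exposed male exceeded the highest sham male.

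Acly in males had 206, 292 and 632 CPM in exposed animals, against 155, 275 and 425 CPM in sham animals, and Fasn had 174, 311 and 797.4 CPM in exposed males, against 174, 274 and 498 CPM in sham males. The top of both exposed ranges came from 1 animal, exposed male replicate 2, and without it the fold change of Fasn was -0.13 in place of 0.24. Elovl6 and Pnpla3 were low in males. Elovl6 had 4.81, 9.17 and 22.7 CPM in exposed males, against 4.31, 5.76 and 19.05 CPM in sham males, with 1 animal far above the rest in each group. Its fold change of 0.44 ± 0.48 became 0.03 without exposed male replicate 6 and 0.94 without sham male replicate 4. Pnpla3 had 1.78, 3.25 and 10.5 CPM in exposed males, against 1.72, 2.85 and 4.41 CPM in sham males. In the male libraries 1 count was worth between 0.1185 and 0.143 CPM. The fold change of Pnpla3 was 0.64 ± 0.38, which became 0.17 without exposed male replicate 6. The fold changes of Acacb, Me1, Srebf1 and Thrsp lay between 0.03 and 0.19, with adjusted p-values from 0.871 to 0.96 (edgeR).

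**Figure D2:**
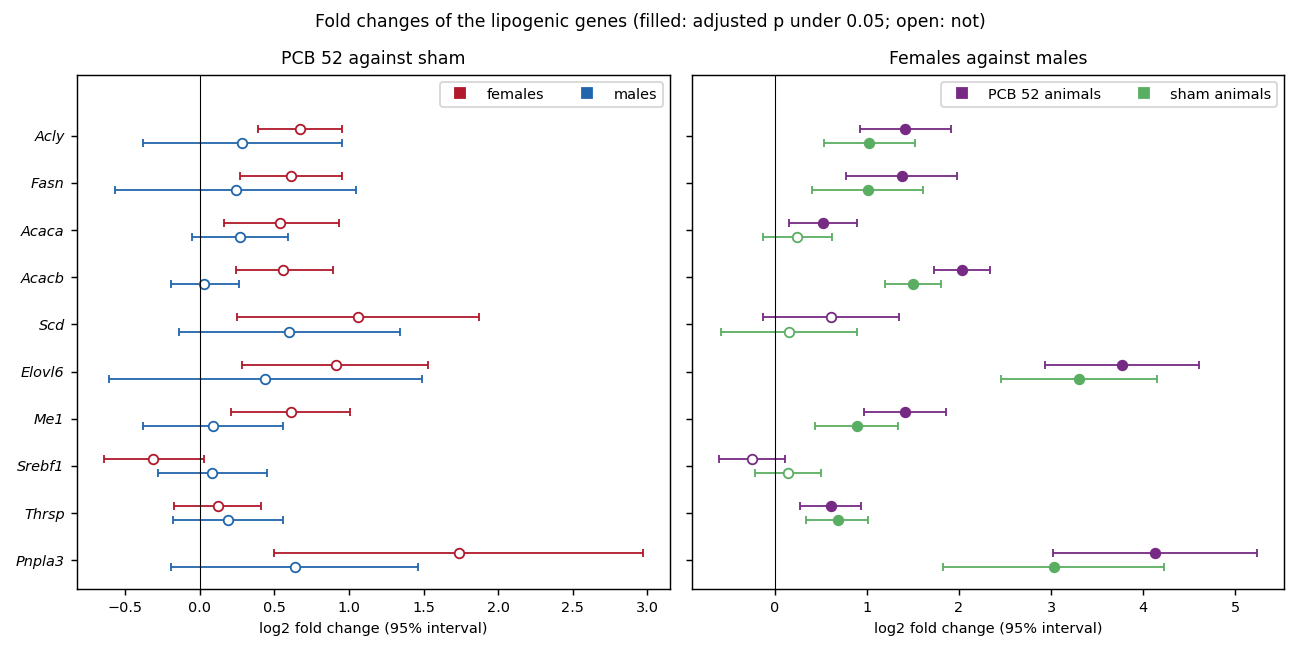
Fold changes of the 10 genes on the log2 scale with 95% intervals from edgeR, for PCB 52 against sham in each sex (left) and for females against males in each exposure group (right); filled points passed an adjusted p of 0.05. No exposure contrast passed, and 8 genes in exposed animals and 7 in sham animals were higher in females.

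Whether the sexes responded differently was tested in 1 fit of all 24 libraries, as the female minus the male log2 fold change. No gene of the 10 and 0 of 10535 genes passed (0%) by edgeR, DESeq2 or limma-voom, and 239 genes (2.27%) had an unadjusted p under 0.05 in edgeR. Among the 10, only Acacb did, with a difference of 0.53 ± 0.20 (95% interval 0.11 to 0.95, unadjusted p = 0.0145, adjusted p = 1, edgeR). The intervals of the other genes were wide, such as -0.30 to 1.07 for Acly and -0.60 to 2.80 for Pnpla3. A larger response in females was thus not shown for any of the 10 genes. Averaged over both sexes, 0 of the 10 and 0 of all genes passed by edgeR (0%), with 1625 genes (15.4%) and 8 of the 10 at an unadjusted p under 0.05. The average fold change was 0.84 ± 0.25 for Scd (adjusted p = 0.173), 0.41 ± 0.13 for Acaca (adjusted p = 0.173) and 0.48 ± 0.17 for Acly (adjusted p = 0.198) in edgeR's test. DESeq2 called 84 genes in this average, of which Scd was the 1 member (adjusted p = 0.0365), and limma-voom called 7 genes, none of them among the 10.

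More of the 10 genes passed between the sexes than between the exposure groups. Among exposed animals, 8 of the 10 genes were higher in females than in males by edgeR's test, in a comparison where 10.1% of all genes were higher and 9.73% lower. Among sham animals 7 of the 10 were higher in females, where 10.7% of all genes were higher and 9.62% lower. Groups did not overlap for 6 of the 10 genes in exposed animals and for 4 in sham animals, against 5.89% and 6.71% of all genes in that direction. No gene of the 10 passed as lower in females. The fold changes below are female over male, first in exposed and then in sham animals.

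Elovl6 and Pnpla3 had the largest differences between the sexes. Elovl6 averaged 144 ± 52.8 CPM in exposed females and 10.3 ± 6.45 CPM in exposed males, and 77.7 ± 23.7 CPM in sham females and 7.74 ± 5.62 CPM in sham males (SD, n = 6 each). These were log2 fold changes of 3.77 ± 0.40 (13.6-fold, adjusted p = 3.18e-07) and 3.30 ± 0.41 (9.87-fold, adjusted p = 2.81e-06), and the lowest female, at 42.3 CPM, lay above the highest male, at 22.7 CPM. Pnpla3 averaged 80.2 ± 48.4 CPM in exposed females and 4.52 ± 3.22 CPM in exposed males, and 24.1 ± 12.6 CPM in sham females and 2.93 ± 0.893 CPM in sham males. Its log2 fold changes were 4.13 ± 0.53 (17.5-fold, adjusted p = 4.92e-06) and 3.03 ± 0.57 (8.17-fold, adjusted p = 0.000477). One sham female, replicate 2, had 3.602 CPM of Pnpla3 and so fell within the male range, while the other sham females had at least 18.01 CPM.

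Acacb followed, with 284 ± 62.5 CPM in exposed females and 67.8 ± 7.19 CPM in exposed males, and 192 ± 32.6 CPM in sham females and 67.03 ± 12.6 CPM in sham males (SD, n = 6 each). No female overlapped any male, and the log2 fold changes were 2.03 ± 0.15 (adjusted p = 2.36e-11) and 1.50 ± 0.15 (adjusted p = 8.31e-09). The other carboxylase gene, Acaca, passed only in exposed animals, with 0.52 ± 0.18 (adjusted p = 0.0427) against 0.24 ± 0.18 in sham animals (adjusted p = 0.406). That call was lost without the low-count filter (adjusted p = 0.0597) and without any 1 of 8 libraries, exposed female replicates 2, 3, 4 and 6, exposed male replicates 3, 4 and 5 and sham male replicate 6, with adjusted p-values of 0.0501 to 0.109. Whether the sex difference of Acaca itself differed with exposure is the test of the difference in response, which it did not pass.

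Acly, Fasn and Me1 were higher in females in both exposure groups. Acly averaged 938 CPM in exposed females and 346 CPM in exposed males, and 589.9 CPM in sham females and 286 CPM in sham males, which gave 1.41 ± 0.24 (adjusted p = 0.000106) and 1.02 ± 0.24 (adjusted p = 0.0027). The log2 fold changes of Fasn were 1.38 ± 0.29 and 1.01 ± 0.29, and those of Me1 were 1.41 ± 0.22 and 0.89 ± 0.22. Thrsp was higher by 0.61 ± 0.16 in exposed and 0.68 ± 0.16 in sham females, with adjusted p-values of 0.00777 and 0.00315 (edgeR). Scd and Srebf1 passed in neither group, with 0.61 ± 0.36 and 0.15 ± 0.35 for Scd and -0.25 ± 0.17 and 0.14 ± 0.17 for Srebf1. For 8 of the 10 genes the order of the 4 means was exposed females, sham females, exposed males, sham males. In Scd exposed males stood above sham females, and in Srebf1 the order was sham females, exposed males, sham males, exposed females. Neighbouring means of the same sex did not differ in the adjusted test, and sham females were not tested against exposed males.

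Markers of other cells were summed beside these results. The 8 adipocyte genes summed to 78.2 to 121 CPM in exposed females, 100.01 to 119 CPM in sham females, 75.1 to 99.3 CPM in exposed males and 71.0 to 97.5 CPM in sham males. Plin1 and Lep, which define fat cells, were at 0 counts in all 24 libraries, and Adipoq had 1 count in all. Most of the adipocyte sum was Cidec, with group means from 59.8 CPM in exposed males to 70.9 CPM in sham females. The group means of Cfd and Lipe lay between 10.3 and 20.1 CPM, and those of Fabp4 between 0.721 and 1.51 CPM. The list of 3 measured erythroid genes ran from 16.04 to 141 CPM in exposed females, with a median of 29.4, and from 43.1 to 150 CPM in sham females, with a median of 89.8. All 3 had counts in both groups. The Kupffer cell list ran from 531 to 760 CPM over females and from 458 to 579 CPM over males, with all 8 genes present. The pancreas list ran from 75.1 to 193 CPM over females and from 14.4 to 28.4 CPM over males, with its defining gene Prss1 at 0 in all libraries. The higher female sum came from Cpa1. Its group means were 102 (sham) and 113 CPM (exposed) for females, but 0.295 and 0.0208 CPM for the matching males. Cela1 went the other way, with means, in the same order, of 6.15 and 4.86 CPM for females against 21.8 and 17.7 CPM for males. The part of these marker lists in the differences between exposure groups and between the sexes was not tested. All 8 hepatocyte markers were present, with summed medians between 168180 and 174900 CPM, and the library totals ran from 6994832 to 9185511 counts.

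By the median, the 10 genes varied more between animals of a group than the typical gene, though not every one of them did. Their median coefficient of variation was 22.7% in exposed females, 23.4% in sham females, 33.2% in exposed males and 28.5% in sham males, against 16.9%, 15.9%, 16.3% and 13.9% over all 10535 genes tested in the same groups. This animal-to-animal variation was shared. On log2 CPM minus the group mean, 41 of the 45 pairs of genes had a Pearson r above 0 over the 24 animals, and the median r was 0.391, while the median over all pairs of tested genes was 0. An r above 0.5 was found in 13 pairs (28.9%), against 3.24% of all gene pairs. Among the 6487 genes at least as abundant as the least abundant of the 10, it was found in 5.01% of pairs. After adjustment over the 45 pairs, 14 passed by r and 12 by Spearman's rho, in permutation tests of 100000 resamples within groups. These tests treat the 24 animals as independent. With consecutively numbered animals permuted together, 12 of the 14 passed by r, and Acaca with Acacb (adjusted permutation p = 0.0577) and Me1 with Pnpla3 (adjusted permutation p = 0.0521) did not.

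**Figure D3:**
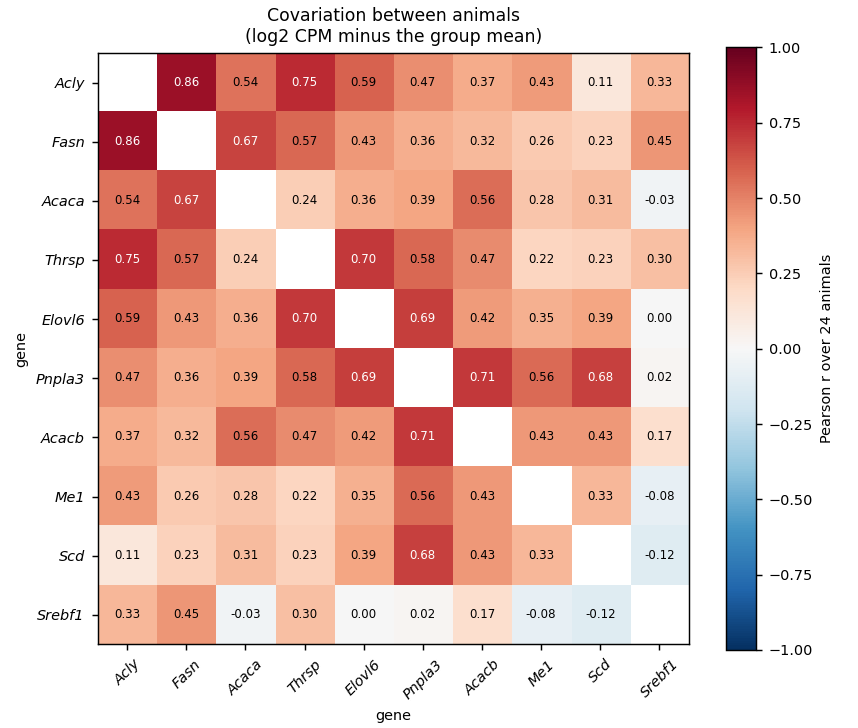
Pearson r between each pair of the 10 genes over 24 animals, on log2 CPM minus the group mean. All pairs that do not involve Srebf1 are above 0, from 0.11 (Acly with Scd) to 0.86 (Acly with Fasn).

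Acly and Fasn, the first and last enzymes of palmitate synthesis, moved together most closely. Their r was 0.859 and rho 0.771 (permutation p = 5e-05 and 0.00023, adjusted p = 0.00135 and 0.00382). The r was 0.57 in females and 0.939 in males, and 0.772 without the 2 animals farthest from the median of Acly. Acly was also tied to Thrsp, with an r of 0.748 (adjusted permutation p = 0.00135), which was 0.634 in females and 0.823 in males. Fasn, which uses malonyl-CoA, and Acaca, which makes it, had an r of 0.672 (adjusted permutation p = 0.00135), with 0.801 in females and 0.689 in males.

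Pnpla3 had the most partners, with 6 of 9 pairs passing by r and a median r of 0.563. Of these 6, the pair with Me1 did not pass with consecutive animals permuted together. The pair with Acly did not pass by rho when animals were permuted singly within groups. The r of Pnpla3 was 0.707 with Acacb, 0.693 with Elovl6 and 0.68 with Scd, with adjusted permutation p-values of 0.0027, 0.00135 and 0.0099. With Acacb the r was 0.835 in females and 0.392 in males, and with Elovl6 it was 0.815 and 0.702. Pnpla3 was counted only 14 times in its lowest male library, and whether low counts affect these values was not tested. Elovl6 and Thrsp had an r of 0.704 (adjusted permutation p = 0.00144). Scd was close to Pnpla3 alone, and its r with Acly was 0.113 (adjusted permutation p = 0.668).

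Srebf1 stood apart. Its median r with the other 9 genes was 0.018, 0 of its 9 pairs passed, and its lowest r was -0.124, with Scd. The highest, 0.445 with Fasn (adjusted permutation p = 0.12), was -0.048 in females and 0.731 in males and fell to 0.197 without the 2 farthest animals. In males all pairs of Srebf1 had an r above 0, from 0.017 with Me1 to 0.731 with Fasn. In females they ran from -0.467 with Acaca to 0.236 with Thrsp, most of them below 0. Whether the sexes differ in this was not tested. These values describe Srebf1 mRNA only.

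**Figure D4:**
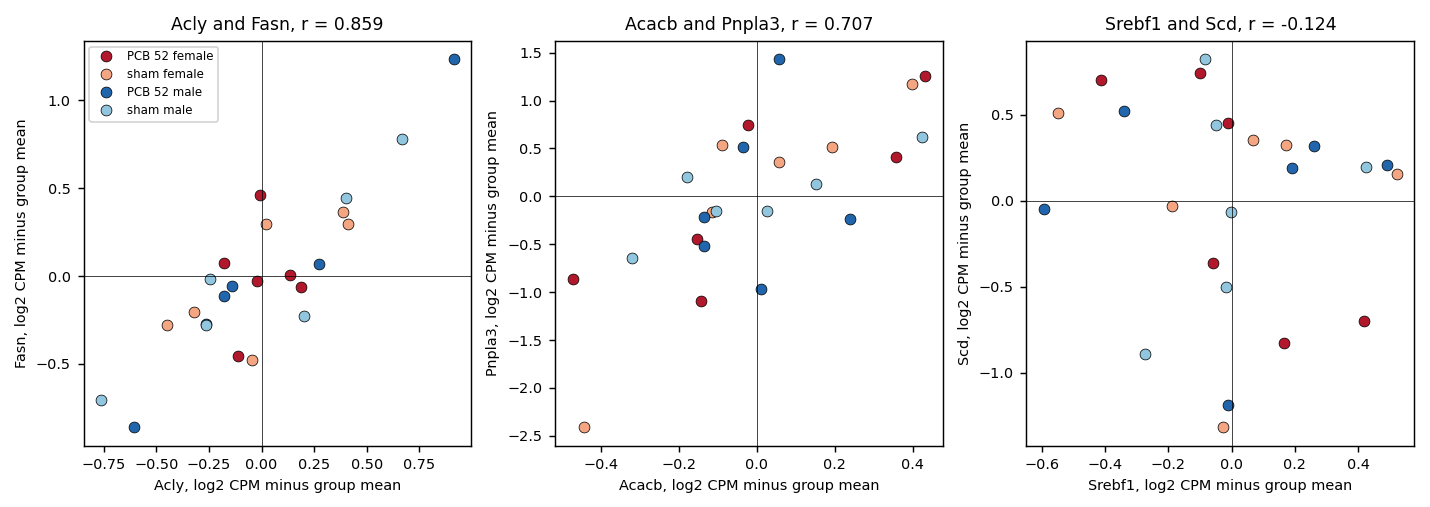
Log2 CPM minus the group mean for 3 pairs of genes, 1 point per animal, coloured by group. Acly and Fasn lie along 1 line (r = 0.859), Acacb and Pnpla3 likewise with more spread (r = 0.707), and Srebf1 and Scd show no such line (r = -0.124).

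Single animals lay high or low across most of the genes. In sham female replicate 5 all 10 genes lay above the group mean, and 9 of 10 did so in exposed female replicate 6, exposed male replicates 2 and 6 and sham male replicate 4. In exposed female replicate 1, exposed male replicate 3 and sham female replicates 2 and 3 none of the 10 did. Animals with 9 or 10 genes above the mean occurred in all 4 groups, and animals with none above it in all but the sham males.

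Further patterns among the libraries were set beside this covariation. The leading axis of variation within groups held 16.7% of the variance in females and 19.8% in males. It was scored in each sex with the gene weights of the other and centred on the mean of each sex. The mean scores, which mirror each other by this centring, were 2.58 in exposed females, -2.57 in sham females, 2.12 in exposed males and -2.12 in sham males. Exposed animals 13 to 16 scored 8.315 to 12.69, animals 17 to 20 -6.61 to -3.106 and animals 21 to 24 -0.7131 to 4.873. The r of the 10 genes with the axis, group means removed, ran from -0.307 for Srebf1 to 0.456 for Me1, with adjusted permutation p-values of at least 0.476. With the axis score as a covariate the female fold changes of PCB 52 over sham were 0.66 for Acly, 0.92 for Scd, 1.54 for Pnpla3 and -0.15 for Srebf1, and 0 of the 10 passed. With the axis regressed out the median r between the 10 genes was 0.368. Consecutive animal numbers pair a male with a female and run through the sham animals before the exposed ones. The axis score was shared within these 12 pairs, with group means removed, at an r of 0.916 and a rho of 0.797 (permutation p = 0.00054 and 0.0121), and an r of 0.863 without the 2 farthest pairs, 0.971 in exposed and 0.829 in sham animals. Over the same pairs the r of the 10 genes ran from -0.104 to 0.561, with adjusted permutation p-values of at least 0.374. What the numbers stand for is not given in the sources used here. Number order and exposure cannot be told apart.

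Genes outside the 10 were ranked by r with the mean of the 10 genes' standardised levels, among 10475 genes, as a description. The highest was Pgd at 0.764, 6-phosphogluconate dehydrogenase, an NADPH source of the pentose phosphate pathway, and Acss2 at 0.738, which makes acetyl-CoA from acetate, and Pdhb at 0.729, a pyruvate dehydrogenase subunit, were also among the first 8. The others were Gfm2 at 0.741, Tlr3 at 0.74, Tfg and Tlcd1 at 0.73 and Trappc11 at 0.725. The lowest were Wnk4 at -0.75, Pla1a at -0.709, Deaf1 at -0.686 and Slc2a8, a sugar transporter, at -0.669. In females alone the r of Pgd was 0.877 and in males 0.782. For Acss2 the r was 0.522 in females and 0.9 in males, and for Pdhb 0.593 and 0.839.

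The same measure was taken over 5 lists of related genes. All 16 genes of SREBP2 cholesterol synthesis had an r above 0, with a median of 0.418 and a highest value of 0.655 for Fdps, farnesyl diphosphate synthase. Of 22 genes of carbon and NADPH supply 17 were above 0 (median 0.392), and of 24 genes of fatty acid use and triglyceride synthesis 17 were (median 0.208), led by Acsl3, an acyl-CoA synthetase, at 0.633. Of 16 fasting genes 5 were above 0 (median -0.14), and the lowest was Creb3l3, a fasting-induced transcription factor, at -0.472. The 22 lipogenic regulators were split, 11 above 0 (median -0.007), from -0.325 for Usf2 to 0.585 for Insig1, an SREBP target that retains SREBP in the endoplasmic reticulum. Over all genes the median was 0.002.

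**Figure D5:**
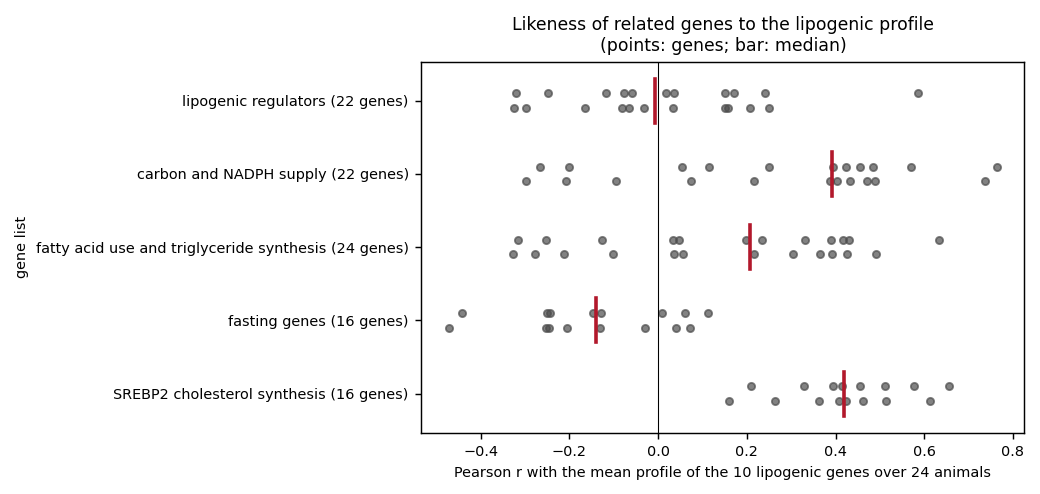
Pearson r over 24 animals between each gene of 5 related lists and the mean profile of the 10 lipogenic genes, 1 point per gene, with the median of each list as a bar. The cholesterol synthesis list lies wholly above 0 (median 0.418), and most fasting genes lie below it (median -0.14).

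In the exposure contrasts no gene of the 5 lists passed edgeR's test in females, in males, in their difference or in their average. At an unadjusted p under 0.05 were 4 genes of each list but cholesterol synthesis in females, where 9.96% of all genes met that level, and between 0 and 3 genes of a list in males, against 5.75% of all genes. The male counts were 3 of 22 supply genes, 2 of 24 genes of fatty acid use and triglyceride synthesis, 1 of 22 regulators, 1 of 16 cholesterol synthesis genes and 0 of 15 fasting genes tested, which is no result about these lists. In females the supply list had a median log2 fold change of 0.10. Pklr, liver pyruvate kinase, had 0.44 ± 0.12 (adjusted p = 0.33), Rpe, ribulose-phosphate epimerase, 0.29 ± 0.10 (adjusted p = 0.395) and Acss2 0.34 ± 0.12 (adjusted p = 0.428). Of the 16 fasting genes 14 had fold changes below 0 in females, with a median of -0.25 against 0.00 over all genes. Pck1, the gluconeogenic carboxykinase, had -0.66 ± 0.13 (adjusted p = 0.172), G6pc1, the liver glucose-6-phosphatase, -0.41 ± 0.12 (adjusted p = 0.341), Tat, tyrosine aminotransferase, -0.91 ± 0.25 (adjusted p = 0.388) and Igfbp1, a fasting-induced binding protein, -0.68 ± 0.27 (adjusted p = 0.465). Fatty acid use and triglyceride synthesis genes were split in females, with 15 of 24 fold changes above 0 and a median of 0.03. Pnpla2, the adipose triglyceride lipase, had -0.54 ± 0.12 (adjusted p = 0.244), Lpin1, a phosphatidate phosphatase, -1.26 ± 0.46 (adjusted p = 0.442) and Plin2, a lipid droplet coat protein, -0.42 ± 0.18 (adjusted p = 0.479). Gpam, the mitochondrial glycerol-3-phosphate acyltransferase, was on the other side of 0, at 0.48 ± 0.22 (adjusted p = 0.493, edgeR).

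The 22 regulators had a median log2 fold change of -0.01 in females, with 10 above 0. Usf1 and Usf2, which bind lipogenic promoters, had -0.35 ± 0.12 and -0.35 ± 0.13 in females, and neither passed (adjusted p = 0.392 and 0.43, edgeR). Prkaa2, a catalytic subunit of AMP-activated kinase, had 0.35 ± 0.14 and Mbtps2, a protease that cleaves SREBP precursors, 0.41 ± 0.18, and these did not pass either (adjusted p = 0.452 and 0.486, edgeR). The 16 cholesterol synthesis genes had a median of 0.18 in females, with 0 at an unadjusted p under 0.05. In males the medians of the 5 lists lay between -0.07 and 0.04. Pck1 and Igfbp1 had -0.25 ± 0.13 and -0.75 ± 0.39 in males (adjusted p = 0.829 each, edgeR).

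Between the sexes many genes of these lists passed. The counts below stand beside 10.1% of all genes higher and 9.73% lower in females among exposed animals, and 10.7% higher and 9.62% lower among sham animals. Cholesterol synthesis genes were higher in females for 12 of 16 in exposed and 11 of 16 in sham animals, with none lower, and Fdps had 1.96 ± 0.21 and 1.91 ± 0.21. Supply genes were higher in females for 11 and lower for 1 of 22 in exposed animals, and higher for 8 and lower for 2 in sham animals. Among them Pgd had 1.62 ± 0.18 and 1.23 ± 0.18, and Pdk4, a kinase that inhibits pyruvate dehydrogenase, 2.46 ± 0.31 and 2.71 ± 0.31. Genes of fatty acid use and triglyceride synthesis were higher for 13 and lower for 3 of 24 in exposed animals, and higher for 12 and lower for 3 in sham animals. Acsl5, an acyl-CoA synthetase, had 1.75 ± 0.10 and 1.72 ± 0.10, and Gpat4, a glycerol-3-phosphate acyltransferase, -1.20 ± 0.10 and -1.42 ± 0.10. Regulators were higher for 7 and lower for 0 of 22 in exposed animals, and higher for 5 and lower for 1 in sham animals, with 1.54 ± 0.28 and 1.76 ± 0.29 for Insig1. Fasting genes were mixed, with 4 higher and 4 lower of 16 in exposed animals and 4 higher and 2 lower in sham animals. The 2 sex contrasts use separate animals but share 1 estimate of the spread.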

How the data were processed

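Liver RNA-seq counts of 24 rats were analysed, 6 in each of 4 groups taken from the labels, with replicates numbered in accession order. The values are gene counts, deposited by the authors without normalization in 1 table per sex. FastQC for quality and HISAT2 for alignment, with the build rn6, are named in the submitters' processing notes. How reads were counted, with which annotation and strand setting, is not given in the sources used here. The labels' protocols name poly(A) capture or rRNA removal as alternatives. Reads of overlapping or antisense genes could not be told apart. In 1 sample the animal code of the column matches the description but differs from the title.

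Of 15319 Entrez IDs 15230 matched a symbol in the RefSeq gene table of GRCr8. CPM are counts per 1000000 library counts (totals 6994832 to 9185511, so 1 count was worth 0.109 to 0.143 CPM); precision refers to the spread between animals. Replicate libraries differed by more than sampling noise (lowest chi-square per degree of freedom 6.68). Tests used edgeR 4.0.16 in R 4.3.3 with TMM, filterByExpr (minimum count 10, total 15), the robust quasi-likelihood test and Benjamini-Hochberg adjustment over all genes, threshold 0.05, two-sided. Exposure was tested in each sex's own fit, and the sex contrasts, the difference and the average in 1 fit of 24 libraries. Alternatives were DESeq2 1.42.0, limma-voom (limma 3.58.1), sva 3.50.0, other normalization and filters, and each library left out. The code was tested on simulated counts. Correlations used log2 CPM (prior count 2) minus the group mean and 100000 permutations within groups (numpy 2.4.6).

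The members and the lists were chosen with earlier results of these data known. Named genes were all 10 members, from each list those that passed, at most 6 by p, otherwise at most 4 with the smallest p, and the 8 most and 4 least like genes. Values of some list genes that this rule names are not reported here. The labels state no pairing of animals.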

Additional observations from a re-analysis of the deposited data

Results flagged for a closer look

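Among the 40 sets of 6 values (10 genes in 4 groups), 4 held an animal whose gap to its nearest neighbour was large for the range of its group, where chance gives about 1 in 20 sets. All 4 were the highest male of their group. Fasn was at 797.4 CPM in exposed male replicate 2, against 336.3 CPM in the next exposed male. Elovl6 was at 22.73 CPM in exposed male replicate 6, against 10.24 CPM in the next. In sham male replicate 4, Elovl6 was at 19.05 CPM, against 6.639 CPM in the next sham male, and Srebf1 at 379.5 CPM, against 292.3 CPM. In each of these 3 animals 9 of the 10 lipogenic genes lay above the group mean.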

How the results depend on the processing

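In females, DESeq2 called 1 of the 10 genes and 15 genes in all (3 higher, 12 lower), and limma-voom and the fit of all 24 libraries 1 gene each. Leaving out 1 library gave 0 to 8 genes, with 8 without exposed female replicate 4 and 1 without sham female replicate 5, and 0 of the 10 throughout. In males DESeq2 called 1 gene. For the average over both sexes DESeq2 called 1 of the 10 and 84 genes, limma-voom 7 and a threshold of 0.10 22, and leaving out 1 library gave 0 to 15 genes, with 15 without exposed female replicate 4, 2 without sham female replicate 6 and 1 without exposed female replicate 3. The cause was not tested. Counts in the sex contrasts stayed within 1.5 times under every alternative run, at 7 to 8 of the 10 genes in exposed and 7 in sham animals.

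Some male fold changes changed sign, those of Acacb, Me1 and Srebf1 near 0 and that of Fasn at 0.24 in the results above. Fasn was -0.09 with 1 surrogate variable, -0.17 without animals 13 to 16 and -0.13 to 0.42 with 1 library left out. Acacb was -0.02 with the library axis, -0.02 without animals 13 to 16 and -0.03 to 0.12 with 1 library left out, including -0.02 and -0.00. Me1 was -0.15 with the surrogate variable, -0.15 with the axis, -0.02 with limma-voom, -0.11 without animals 13 to 16 and -0.03 to 0.22 with 1 library left out. Srebf1 was -0.03 with limma-voom, -0.10 without animals 13 to 16 and -0.03 to 0.18 with 1 library left out. With 1 library left out, the female minus male difference of Elovl6 ran from -0.04 to 0.88, against 0.47 with all libraries. That of Thrsp ran from -0.19 to 0.04, including 0.02 and 0.00. Scd was -0.03 between sham females and sham males with limma-voom, and Srebf1 0.04 between exposed females and exposed males without animals 13 to 16. None of these values passed.

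The median r between the 10 genes was 0.335 to 0.435 with 1 library left out and 0.368 to 0.444 otherwise. Permuting consecutive animals together, an alternative chosen after seeing the data, left 12 of 14 pairs of genes by r and gave 11 in place of 12 by rho. With a replicate block of consecutive animal numbers, a pairing that the labels do not state, 0 genes were called for the difference, 8 of the 10 and 2402 genes between exposed females and males, and 7 of the 10 and 2467 genes between sham females and males, and no call on the 10 changed. For exposure no paired analysis was possible because consecutive numbers share their exposure. The depth limits Pnpla3 and Elovl6 in males, with as few as 14 and 35 counts.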
